A study of Mus musculus with 18 samples.

Results

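The genes described here build triglycerides in the enterocyte and load them onto chylomicrons, the lipoproteins that carry dietary fat into lymph. They were the 10 genes Mttp, Apob, Apoa1, Apoa4, Apoc2, Apoc3, Dgat1, Dgat2, Mogat2 and Sar1b, found by their gene name among the non-control probes of the array files, and each was represented by its brightest probe. All 10 passed the filter on dim probes, out of 21542 genes tested and 37074 gene names on the array. Cells from the ileum of 18 mice were hybridised to Agilent one-colour arrays, which measure each transcript by the fluorescence of Cy3-labelled cRNA bound to its printed probe. All mice were on a C57BL6/J background and carried floxed alleles of Pgc1α (gene symbol Ppargc1a), a transcriptional coactivator known for its part in mitochondrial biogenesis. The 6 arrays of iPGC1afl/fl mice on chow and the 6 of iPGC1afl/fl mice on Western diet (WD, HFD in the labels) came from animals without Cre. The other 6 came from animals on WD labelled iPGC1a-/-, which also carried Vil1-Cre, so that the Villin promoter drives recombination throughout the intestinal epithelium and not in enterocytes alone. WD gave 42% of its kcal as fat with 0.2% cholesterol and was fed for 8 weeks from 8 weeks of age, and mice were fasted overnight and killed at Zeitgeber Time 3. Mice labelled iPGC1a-/- on chow, and mice with Vil1-Cre but no floxed alleles, were not analysed here.

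In the enterocyte, absorbed monoglyceride and fatty acids are joined again by monoacylglycerol and diacylglycerol acyltransferases at the endoplasmic reticulum. Microsomal triglyceride transfer protein passes the product to apolipoprotein B while it is made, the particle gains further apolipoproteins, and COPII vesicles carry it to the Golgi. The small apolipoproteins on the particle surface later govern how lipoprotein lipase handles it in the circulation.

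What the arrays read for each gene is a stretch of 60 bases, and 16 probes covered the 10 genes. The probes of the genes that moved most with diet, with Apob and Apoa1 for their place in the particle, had the sequences below, read from the array files in the sense direction. The second Apoc2 probe is shown in place of the brightest. Positions are given on mm9, as the array files have them, and were not assigned to exons or UTRs here.
Apoa4: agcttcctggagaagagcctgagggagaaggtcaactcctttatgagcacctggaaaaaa
Apoc2: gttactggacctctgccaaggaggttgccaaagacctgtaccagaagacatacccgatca
Dgat1: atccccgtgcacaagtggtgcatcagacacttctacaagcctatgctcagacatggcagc
Apob: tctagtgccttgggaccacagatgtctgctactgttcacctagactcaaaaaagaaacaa
Apoa1: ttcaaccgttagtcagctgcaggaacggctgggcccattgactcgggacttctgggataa
The Apoa4 probe lies at chr9:46051206-46051266 on the plus strand and the Apoa1 probe at chr9:46037921-46037980, also on the plus strand. The second Apoc2 probe is at chr7:20258597-20258656 on the minus strand, the Apob probe at chr12:8012697-8012756 on the plus strand and the Dgat1 probe at chr15:76333128-76333274 on the minus strand. The Dgat1 interval is longer than its probe. Neighbouring genes are compared further on through the brightest probes of Apoc3 (chr9:46041134-46041193, minus strand) and Mogat2 (chr7:106367601-106367660, minus strand), the 2 of the 16 whose sequence holds AATAAA, the usual polyadenylation signal, a string present in 9.77% of all 56605 probes. Their last 30 bases follow, with that string in capitals.
Apoc3: cctAATAAAgctggataagaagctgctgtt
Mogat2: acatgttacctcAATAAAtgaaaggagtct

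Signals well above background were found at 56.3% to 62.3% of the 59305 non-control spots per array, and 0 spots were saturated. The 3 slides held 2 arrays of each group. Array 4 of iPGC1afl/fl mice on chow stood apart: it was the lowest of its group for 10 of 10 genes. It also had the lowest mean level of 6 enterocyte markers (14.87 against 15.23 to 15.55 on the other chow arrays). Its level of 6 cycling-cell markers was the highest (10.22 against 9.50 to 9.96). Markers of the proximal small intestine (9.55 against 10.36 to 10.71) and of the villus tip (12.35 against 12.64 to 13.23) were lowest there too. Its ileum markers, at 13.46, lay within the other chow arrays (12.83 to 13.50). Levels are log2 normalised intensities throughout. The main diet results are also given without this array. The targeted gene did not check the labels: the brighter Ppargc1a probe read 11.38 ± 0.07 (SD, n = 6) for iPGC1afl/fl on WD and 11.67 ± 0.26 for the arrays labelled iPGC1a-/-, and whether either of its probes lies in the deleted part of the gene was not determined here. Directions by genotype below follow the labels.

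The first question was how these genes responded to WD in mice with intact Pgc1α. Apoc2, Apoa4, Dgat1, Apob and Mogat2 rose, which is 5 of 10, against 24.6% of all genes tested that passed the same test in either direction and 10.4% that passed and were higher (limma with Benjamini-Hochberg adjustment, adjusted p of 0.05 or lower). None of the 10 fell, against 14.2% of all genes. The mean was higher on WD for 10 of 10 genes, with a median difference of 0.36 on the log2 scale against 0.00 over all genes tested. Without array 4 of the chow group, 7 of 10 were higher with a median of 0.29, and 5 passed again, while genes passing in all went from 5294 to 4145. The arrays of the 2 diets did not overlap for 4 of the 10 genes (Apoc2, Apoa4, Dgat1 and Apob), against 10.4% of all genes in either direction and 5.11% in the higher direction. With a fold change above 1.5 required as well, Apoc2 and Apoa4 were left, against 8.43% of all genes in either direction and 3.22% in the higher direction. Per the paper's methods, the cells were released from the opened ileum with a chelating buffer and collected together. In such a mixture, more cells of a type and more RNA per cell cannot be told apart.

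**Figure D1:**
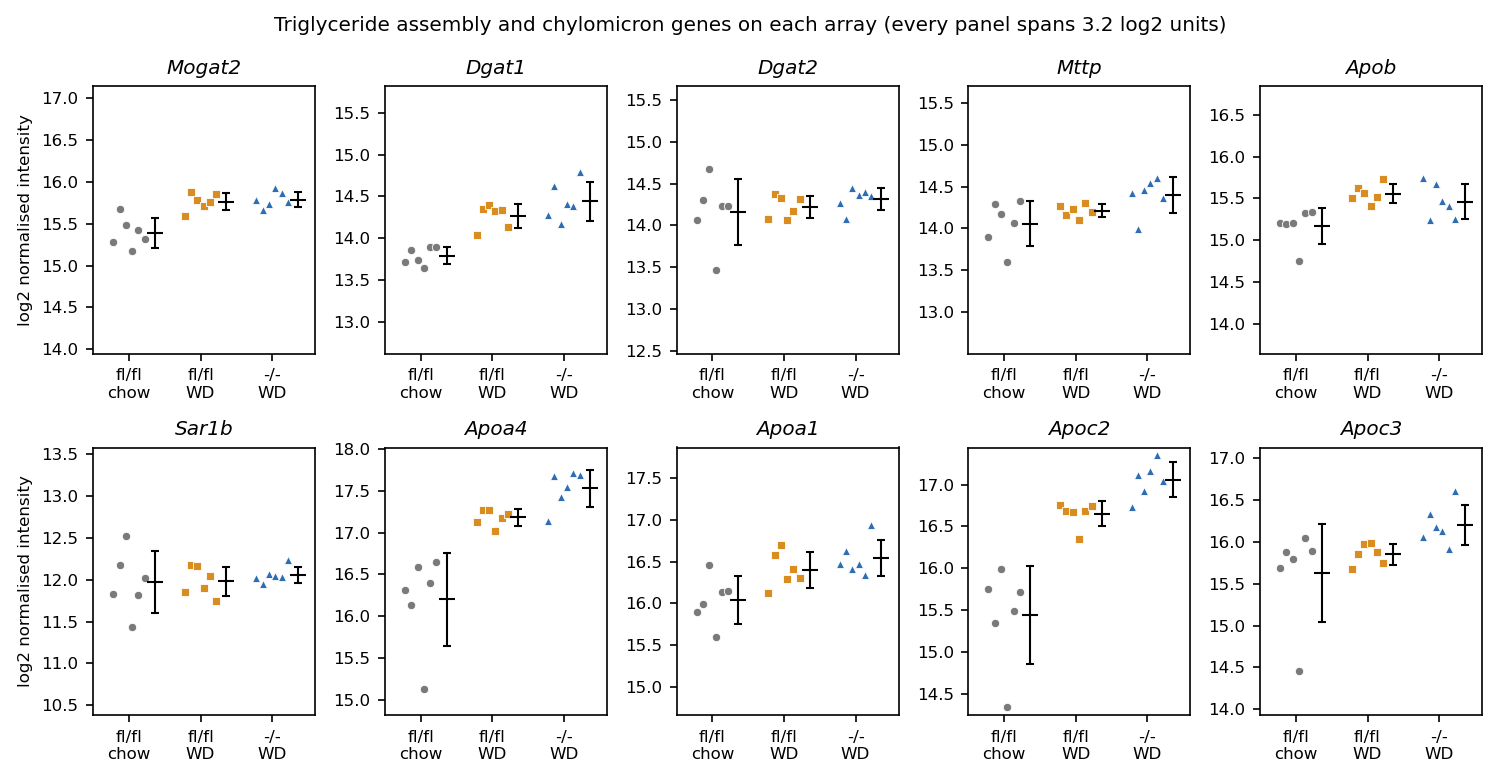
Log2 normalised intensity of the brightest probe of each gene (vertical axes, each spanning the same number of log2 units) on every array, with iPGC1afl/fl mice on chow as grey circles, on WD as orange squares, and arrays labelled iPGC1a-/- on WD as blue triangles; black marks give mean ± SD of 6 arrays. The WD squares of Apoc2 and Apoa4 lie wholly above the chow circles, while those of Sar1b and Dgat2 lie among them, and a single chow circle lies far below the rest for Apoa4, Apoc2 and Apoc3.

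The acyltransferases come first in the pathway. Mogat2, the monoacylglycerol acyltransferase of the small intestine, ran from 15.17 through a median of 15.37 to 15.68 on chow and from 15.60 through 15.77 to 15.88 on WD. The groups overlapped by the highest chow array and the lowest WD array. The difference was 0.37 (SE 0.0825, 1.29-fold, adjusted p = 0.00272), and it was 0.43, 0.32 and 0.36 within the 3 slides. Dgat1, which adds the last acyl chain and resides in the endoplasmic reticulum, ran from 13.64 (median 13.80) to 13.89 on chow and from 14.04 (median 14.34) to 14.39 on WD. No chow array reached the lowest WD array, and the rise was 0.48 (SE 0.0981, 1.39-fold, adjusted p = 0.00142). Dgat2, an unrelated enzyme that catalyses the same step, had medians of 14.23 and 14.24 with chow arrays between 13.46 and 14.67. Its chow arrays spanned those on WD, and the difference of 0.06 (95% CI -0.22 to 0.35) did not pass (adjusted p = 0.782) and was -0.077 without array 4 of the chow group. A dim second probe of Mogat2 gave a difference of 0.33 that did not pass (adjusted p = 0.249).

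Particle assembly was read by Mttp and Apob. Apob, which encodes the structural protein of the chylomicron, ran from 14.75 (median 15.21) to 15.34 on chow and from 15.41 (median 15.54) to 15.73 on WD. Every WD array was above every chow array, by 0.39 on average (SE 0.105, 1.31-fold, adjusted p = 0.0112), and a second Apob probe rose by 0.38 (adjusted p = 0.0307). Mttp, the transfer protein that lipidates it, ran from 13.60 (median 14.12) to 14.33 on chow and from 14.10 (median 14.22) to 14.31 on WD. The WD arrays fell inside the chow range, and the difference of 0.15 (95% CI -0.09 to 0.39) did not pass (adjusted p = 0.362). It was 0.06 without array 4 of the chow group. Sar1b, the GTPase that starts COPII coat formation and whose human gene is mutated in chylomicron retention disease, ran from 11.44 (median 11.93) to 12.53 on chow and from 11.74 (median 11.98) to 12.18 on WD. Again the WD arrays lay within the spread of chow, with a difference of 0.01 (95% CI -0.26 to 0.29, adjusted p = 0.960) that became -0.10 without array 4 of the chow group.

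Among the exchangeable apolipoproteins, Apoc2 and Apoa4 had the largest differences of the 10 genes. Apoc2, the activator of lipoprotein lipase, ran from 14.34 (median 15.60) to 15.99 on chow and from 16.35 (median 16.68) to 16.75 on WD. All 6 WD arrays exceeded all chow arrays, and the difference was 1.21 (SE 0.191, 2.32-fold, adjusted p = 0.000110). The probe printed above gave 1.28 (adjusted p = 0.000161), and within the 3 slides the brightest probe gave 0.81, 1.11 and 1.71. Apoa4, an abundant intestinal apolipoprotein of chylomicrons, ran from 15.13 (median 16.35) to 16.65 on chow and from 17.02 (median 17.20) to 17.27 on WD. Here too the groups were apart, by 0.98 (SE 0.183, 1.97-fold, adjusted p = 0.000591). Without array 4 of the chow group, the differences were 0.99 for Apoc2 (adjusted p = 1.22e-05) and 0.77 for Apoa4 (adjusted p = 5.46e-05).

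Apoa1, the main protein of high-density lipoprotein, which the intestine also secretes on chylomicrons, ran from 15.59 (median 16.07) to 16.46 on chow and from 16.12 (median 16.35) to 16.70 on WD. The groups overlapped, and the difference of 0.36 (SE 0.131, 1.28-fold) stood just outside the threshold (adjusted p = 0.0525). It passed under 9 of 15 other settings, among them the slide as a block (adjusted p = 0.0428), and was 0.27 without array 4 of the chow group (adjusted p = 0.143). Apoc3, an inhibitor of lipoprotein lipase, ran from 14.45 (median 15.84) to 16.04 on chow and from 15.67 (median 15.87) to 15.99 on WD. Apart from its lowest array, the chow group covered the same levels as WD: the difference was 0.23 (95% CI -0.18 to 0.63, adjusted p = 0.427) with all arrays and -0.0079 without that array. A second Apoc3 probe gave 0.21 (adjusted p = 0.491), and the much dimmer last probe rose by 0.55 (adjusted p = 0.0137), so the probes disagreed on the call.

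**Figure D2:**
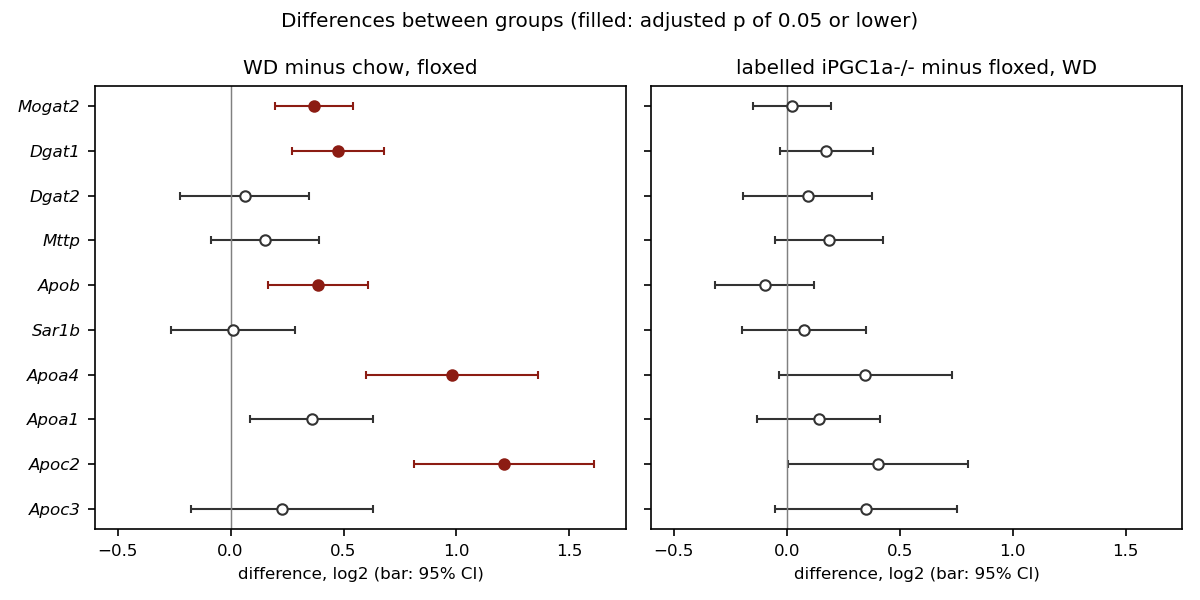
Log2 difference between groups (horizontal axes) for each gene with its 95% confidence interval from limma, for WD against chow in iPGC1afl/fl mice (left) and for arrays labelled iPGC1a-/- against iPGC1afl/fl mice on WD (right); filled points had an adjusted p of 0.05 or lower. On the left, 5 points are filled, up to 1.21 for Apoc2, and on the right 0 are.

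Apoa1, Apoc3 and Apoa4 are neighbours on chromosome 9, and Mogat2 and Dgat2 on chromosome 7, so their ratio within each array showed whether neighbours moved by the same amount. The gaps between the probes are 3.15 kb from Apoa1 to Apoc3, 10.01 kb from Apoc3 to Apoa4 and 65.3 kb between Dgat2 and Mogat2 (mm9). The log2 ratio of Apoa4 to Apoa1 was higher on WD by 0.62, and that of Apoa4 to Apoc3 by 0.75. Both differences had an exact permutation p of 0.00216, the smallest that 6 against 6 arrays allow (two-sided, adjusted p = 0.00866 over 8 ratios). Without array 4 of the chow group they were 0.50 and 0.77 (adjusted p = 0.00577 for both). The Apoa1 to Apoc3 ratio differed by 0.13 (exact permutation p = 0.496, adjusted p = 0.566), and by 0.28 without that array (exact permutation p = 0.0519, adjusted p = 0.0831). Mogat2 over Dgat2 was higher by 0.31 (exact permutation p = 0.0303, adjusted p = 0.0606), and by 0.40 without that array (adjusted p = 0.00577). Within the chromosome 9 cluster, then, the WD response of Apoa4 was larger than that of either neighbour, and a ratio within an array shows unequal change only.

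**Figure D3:**
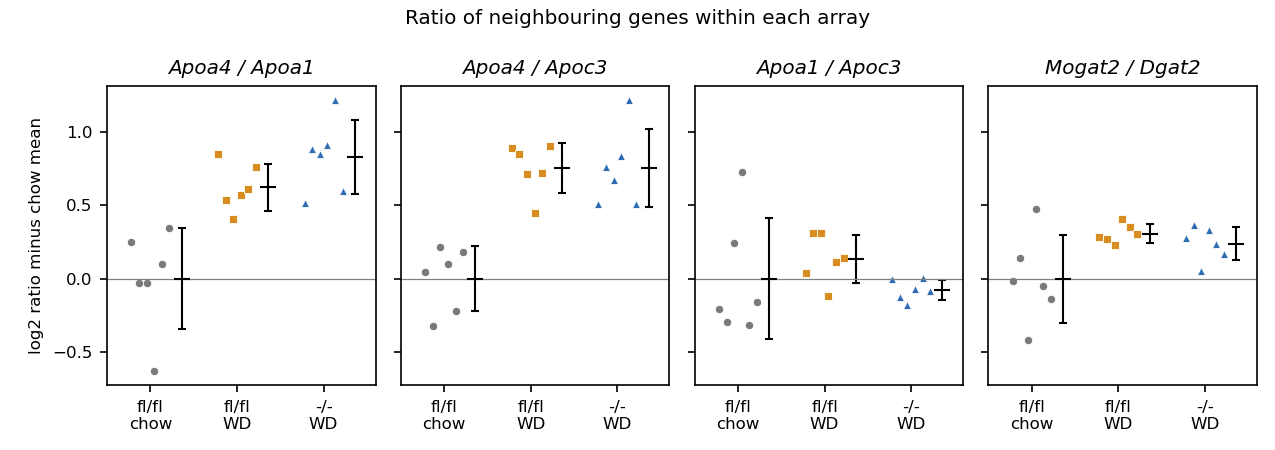
Log2 ratio of the brightest probes of 2 neighbouring genes within each array, minus the mean of the chow group (vertical axis), for the 3 groups (symbols as in the plot of levels by array; black marks give mean ± SD of 6 arrays). For Apoa4 over Apoa1 and Apoa4 over Apoc3, the WD arrays lie above the chow arrays, by 0.62 and 0.75 on average.

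The RefSeq promoter table (GRCm38.p6) held 6 of the 10 genes: Mttp, Apob, Apoa1, Apoa4, Apoc2 and Sar1b. The 250 bases before the transcript start were searched on both strands for TATAAA (the TATA box core) and for TGACGT (the core of the cAMP response element). They were also searched for CAAAGNNCA, a form of the element bound by HNF4 and related receptors in which each N may be any base. None of these strings overlapped another in the 6 promoters. Of all 32851 promoters in the table, 12.4% held TATAAA, 5.49% held CAAAGNNCA and 6.47% held TGACGT. Apob held TATAAA from 60 to 55 bases before the start and CAAAGNNCA on the opposite strand from 103 to 95 bases before it. Apoa4 held CAAAGNNCA from 182 to 174 bases before the start, and Mttp held TGACGT on the opposite strand from 29 to 24 bases before it. Apoa1, Apoc2 and Sar1b held none of the 3 strings in this window. The promoters of the 2 genes that rose and held a match, and of Apoa1 as the neighbour of Apoa4, are printed with matches in capitals. They lie at chr9:46240594-46240843, chr12:7977427-7977676 and chr9:46228380-46228629, all on the plus strand. A match describes the letters and not the binding of a factor.
Apoa4: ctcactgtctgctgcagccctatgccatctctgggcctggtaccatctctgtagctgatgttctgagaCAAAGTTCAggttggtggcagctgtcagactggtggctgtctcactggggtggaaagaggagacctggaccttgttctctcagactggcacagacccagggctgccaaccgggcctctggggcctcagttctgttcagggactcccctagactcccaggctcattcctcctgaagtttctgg
Apob: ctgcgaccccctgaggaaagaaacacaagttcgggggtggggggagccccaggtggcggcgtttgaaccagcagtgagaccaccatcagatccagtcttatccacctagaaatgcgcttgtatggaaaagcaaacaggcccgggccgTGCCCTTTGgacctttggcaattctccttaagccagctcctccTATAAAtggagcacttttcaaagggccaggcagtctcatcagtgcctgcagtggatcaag
Apoa1: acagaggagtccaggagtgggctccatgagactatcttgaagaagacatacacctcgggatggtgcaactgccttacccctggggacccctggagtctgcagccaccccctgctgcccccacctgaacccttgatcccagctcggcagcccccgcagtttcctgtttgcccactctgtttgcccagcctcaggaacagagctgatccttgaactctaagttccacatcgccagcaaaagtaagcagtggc
A dim probe assigned to Mttp, which read 5.17 ± 0.22 (SD, n = 6) on chow and 5.16 ± 0.16 on WD, has its whole sequence inside the 300-base window around the Mttp start used in the RefSeq table.

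The next question was whether the arrays labelled iPGC1a-/- differed from iPGC1afl/fl mice when both were fed WD. In limma, 0 of 10 genes passed, against 0.227% of all genes tested, and at an unadjusted p under 0.05 there was 1 (Apoc2), against 9.3% of all genes. The groups of the brightest probe were apart for none of the 10, against 0.966% of all genes. The mean was higher in the arrays labelled iPGC1a-/- for 9 of 10 genes, with a median difference of 0.16 against 0.01 over all genes tested. The exception was Apob, at -0.10 (95% CI -0.32 to 0.12, adjusted p = 0.792), although its second probe gave 0.02 (95% CI -0.23 to 0.28). The 10 genes varied together, so they are not separate readings, and the share of all genes that were higher is not given here. Of the enterocyte markers, 6 of 6 were also higher (median 0.12), and of the ileum markers 0 of 6.

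Apoc2, Apoc3 and Apoa4 had the widest genotype differences of the 10. Apoc2 in the arrays labelled iPGC1a-/- ran from 16.74 (median 17.08) to 17.35, and 6 of 6 arrays were above the mean of iPGC1afl/fl mice on WD. The difference was 0.41 (95% CI 0.01 to 0.80, adjusted p = 0.515), and the second Apoc2 probe gave 0.59 (adjusted p = 0.398). Apoc3 ran from 15.92 (median 16.15) to 16.61, also with 6 of 6 arrays above that mean, and differed by 0.35 (95% CI -0.05 to 0.75, adjusted p = 0.574). Its second probe differed by 0.41 (95% CI -0.02 to 0.83, adjusted p = 0.541) with groups apart, from 14.95 upwards against at most 14.93, and its dim probe differed by 0.47 (95% CI 0.15 to 0.79, adjusted p = 0.353). Apoa4 ran from 17.14 (median 17.61) to 17.71 and differed by 0.35 (95% CI -0.03 to 0.73, adjusted p = 0.558). For these 3 genes the chow arrays had SDs of 0.56 to 0.59 while the WD groups had 0.10 to 0.24, and the model shares one estimate of the spread. When single genes were compared over the 12 WD arrays alone with an exact permutation test (two-sided, 10 genes, unadjusted), p was 0.00649 for Apoc2, 0.00649 for Apoc3 and 0.0108 for Apoa4, and it was 0.0801 or higher for the other 7. The share of all genes with such p-values is not given here. These 3 genes are not separate readings either. With group means removed, Pearson r was 0.94 for Apoa4 with Apoc2, 0.81 for Apoa4 with Apoc3 and 0.67 for Apoc2 with Apoc3. A limma fit of the WD groups alone gave adjusted p = 0.179 for Apoc2, 0.290 for Apoc3 and 0.243 for Apoa4, so none passed over all genes there either.

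The enzymes and the rest of the assembly genes differed less by genotype. Mttp was at 14.40 ± 0.22 (SD, n = 6) in the arrays labelled iPGC1a-/- against 14.21 ± 0.08, a difference of 0.19 (95% CI -0.05 to 0.43). Dgat1 differed by 0.18 (95% CI -0.03 to 0.38), Apoa1 by 0.14 (95% CI -0.13 to 0.41), Dgat2 by 0.09 (95% CI -0.19 to 0.38) and Sar1b by 0.08 (95% CI -0.20 to 0.35). Mogat2 had the narrowest interval, with a difference of 0.02 (95% CI -0.15 to 0.20), and its sign turned under both scalings to the 75th percentile. The dim second Mogat2 probe gave 0.43 (95% CI 0.01 to 0.84, adjusted p = 0.511), and the mean of both probes gave 0.23 (adjusted p = 0.568). The dim Mttp probe gave -0.04 (95% CI -0.24 to 0.16). Across the 3 groups the means ran in the order iPGC1afl/fl on chow, iPGC1afl/fl on WD, labelled iPGC1a-/- on WD for 9 of 10 genes, but the second step passed for none of them. The 4 neighbour ratios also did not pass by genotype, the nearest being Apoa1 over Apoc3 at -0.21 (exact permutation p = 0.0195, adjusted p = 0.0519).

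**Figure D4:**
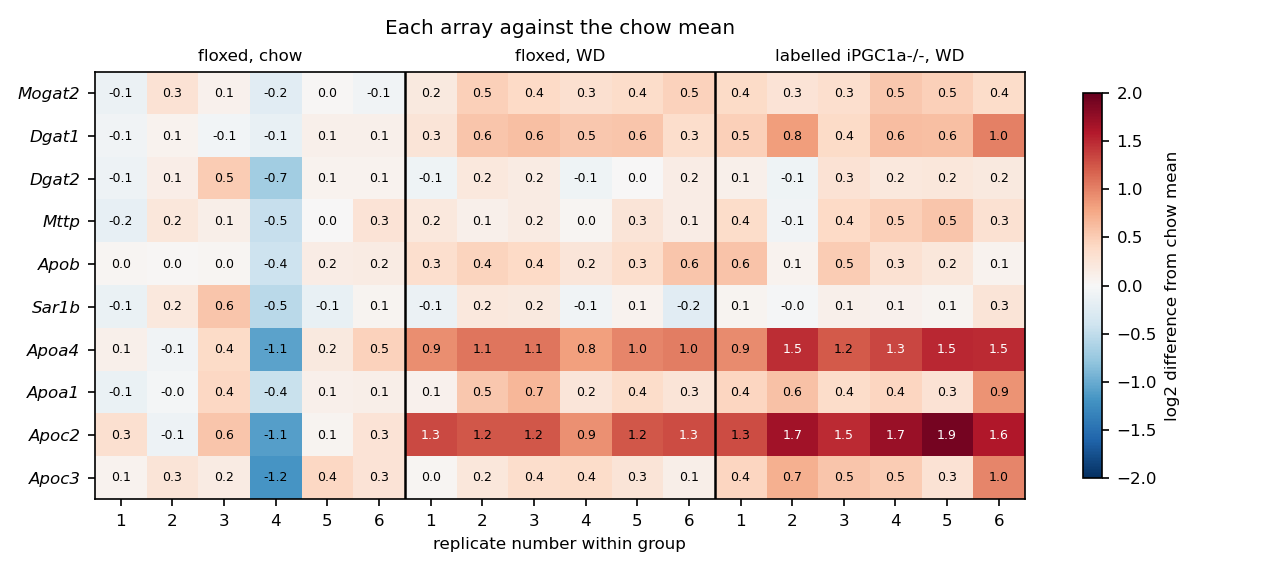
Log2 difference of every array (columns, numbered within group) from the mean of the chow group for each gene (rows), coloured from blue (lower) to red (higher). Chow array 4 is below the mean in 10 of 10 rows, most in Apoc3, Apoc2 and Apoa4, and those of Apoc2 and Apoa4 are red on all WD arrays.

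The 10 genes varied together to an unequal degree. Over the 45 pairs, the median Pearson r across the 18 arrays was 0.68, and 0.57 after the mean of each group was removed, with 43 pairs above 0 and a range from -0.31 to 0.94. These arrays share their normalisation, and array 4 of the chow group enters every pair. The tightest pair was Apoa4 with Apoc2, on different chromosomes (r = 0.98 over 18 arrays, 0.94 with group means removed). Other genes were searched only where their array name was a current RefSeq symbol. The most alike over the 18 arrays was Cd36, a fatty acid transporter, for Apoc2 (r = 0.98) and Ms4a10 for Apoa4 (r = 0.98). It was Npb for Apoa1 (r = 0.98) and Alpi, the intestinal alkaline phosphatase, for Dgat1 (r = 0.97). Anxa4 was nearest to Mogat2 (r = 0.96), Hdlbp to Mttp (r = 0.93), Sec24d, a cargo-binding subunit of the COPII coat, to Apoc3 (r = 0.92), Zbtb43 to Apob (r = 0.91), Ypel5 to Dgat2 (r = 0.90) and Sult1d1 to Sar1b (r = 0.87). With group means removed, r between each of the 10 genes and its nearest gene ran from 0.82 (Apob) to 0.97 (Apoa1). For the mean z score of the 10 genes, the 5 nearest were 2010106E10Rik, Cdr2, Vwa1, Guca2b and Ephx2, each with r of 0.97 over the 18 arrays.

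Other genes of the pathway were read from 5 lists with 79 measured genes. By diet, 24 rose and 6 fell, with a median difference of 0.05, beside 10.4% and 14.2% of all genes tested, and 27 passed without array 4 of the chow group. By genotype 0 passed in limma, with 8 of 79 at an unadjusted p under 0.05, a share near the 9.3% of all genes. These 8 were higher in the arrays labelled iPGC1a-/-, but the share of all genes by direction is not given here. G0s2, which is among them, passed the filter only through the arrays labelled iPGC1a-/-. It was well above background on 5 of 6 of those and on 3 of 6 in each other group. Of 15 genes that supply and activate fatty acids or build the glycerol backbone, 5 rose and 1 fell. Fabp1, a fatty acid binding protein, rose by 0.88 (adjusted p = 0.00680), from 15.80 ± 0.69 (SD, n = 6) to 16.68 ± 0.19, with no overlap. Lpin2, a phosphatidate phosphatase, rose by 0.53 (adjusted p = 0.00274), and Agpat9, the array's name for the glycerol-3-phosphate acyltransferase Gpat3, rose by 0.53 (adjusted p = 0.000874). Slc27a4 rose by 0.48 and Acsl5 by 0.45. Agpat5 fell by 0.55 (adjusted p = 0.000869). Fabp2 differed by 0.04 (adjusted p = 0.620), but its median and its highest array on WD were both 18.227. At the top of the normalised scale the value is set by rank, so a change in Fabp2 could not be read.

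Of 13 lipid droplet and lipolysis genes, 4 rose and 1 fell. Plin2, a coat protein of lipid droplets, rose by 0.65 (adjusted p = 0.00614), and the droplet proteins Cidec and Cideb rose by 0.53 (adjusted p = 0.0471) and 0.38 (adjusted p = 0.0356). Fitm2 rose by 0.31. Hilpda, an inhibitor of the triglyceride lipase Pnpla2, fell by 0.44 (adjusted p = 0.00798), while Pnpla2 itself differed by 0.03 (adjusted p = 0.826). Of 12 genes that act on the nascent particle, 6 rose and 0 fell, the 6 including Apoa5, which passed the filter only through the WD groups. Lpcat3, which remodels phospholipids, rose by 0.61 (adjusted p = 0.000143), and Tm6sf2, which acts in lipidation, rose by 0.41 (adjusted p = 0.00128). Apoa2 rose by 0.46 (adjusted p = 0.00124). Apoa5 was well above background on 2 of 6 chow arrays, with levels of 4.69 to 4.99, and on 5 of 6 WD arrays, with levels of 5.22 to 5.74. P4hb, the partner subunit of Mttp, rose by 0.39 (adjusted p = 0.0143) and Pctp by 0.40, while the chaperones Canx and Hspa5 gave -0.21 and -0.24 and did not pass.

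Of 21 COPII and Golgi transport genes, 4 rose and 1 fell, beside 10.4% and 14.2% of all genes tested. Both directions together were close to the 24.6% of all genes. Those that rose were Bet1 by 0.53 (adjusted p = 0.000450), Vti1a by 0.50 (adjusted p = 0.000376), Sec23a by 0.37 (adjusted p = 0.0314) and Sec31a by 0.30 (adjusted p = 0.0162). Bet1 and Vti1a are SNARE proteins, and Sec23a and Sec31a are subunits of the coat. Tmed2, a cargo receptor, fell by 0.28 (adjusted p = 0.00527), and Sar1a, the paralogue of Sar1b, gave -0.20 (adjusted p = 0.0887). Of 18 transcription regulators, 5 rose and 3 fell. Ppara, the fatty acid receptor, rose by 1.63 (adjusted p = 7.81e-09), and Srebf1, a driver of lipid synthesis, rose by 1.54 (adjusted p = 6.83e-08), and both had groups apart. Creb3l3, an activator of apolipoprotein genes in liver and gut, rose by 0.50 (adjusted p = 0.000922), and Hnf4g rose by 0.36 (adjusted p = 0.0321). Nr1h3, which encodes the oxysterol receptor LXRα, rose by 0.67. Hnf4a, the better known relative of Hnf4g, gave -0.13 (adjusted p = 0.410). Prdm1 fell by 0.94 (adjusted p = 1.1e-05) and Nr1h4, the bile acid receptor, by 0.78 (adjusted p = 0.000718), and Xbp1 fell by 0.34. Of the regulators named here, Xbp1 is also in the plasma cell marker list, Nr1h4 in the ileum list and Creb3l3 in the villus tip list. The same values are counted again among the markers below. Genes given here beyond the 4 with the largest change per list were chosen after their values were seen.

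**Figure D5:**
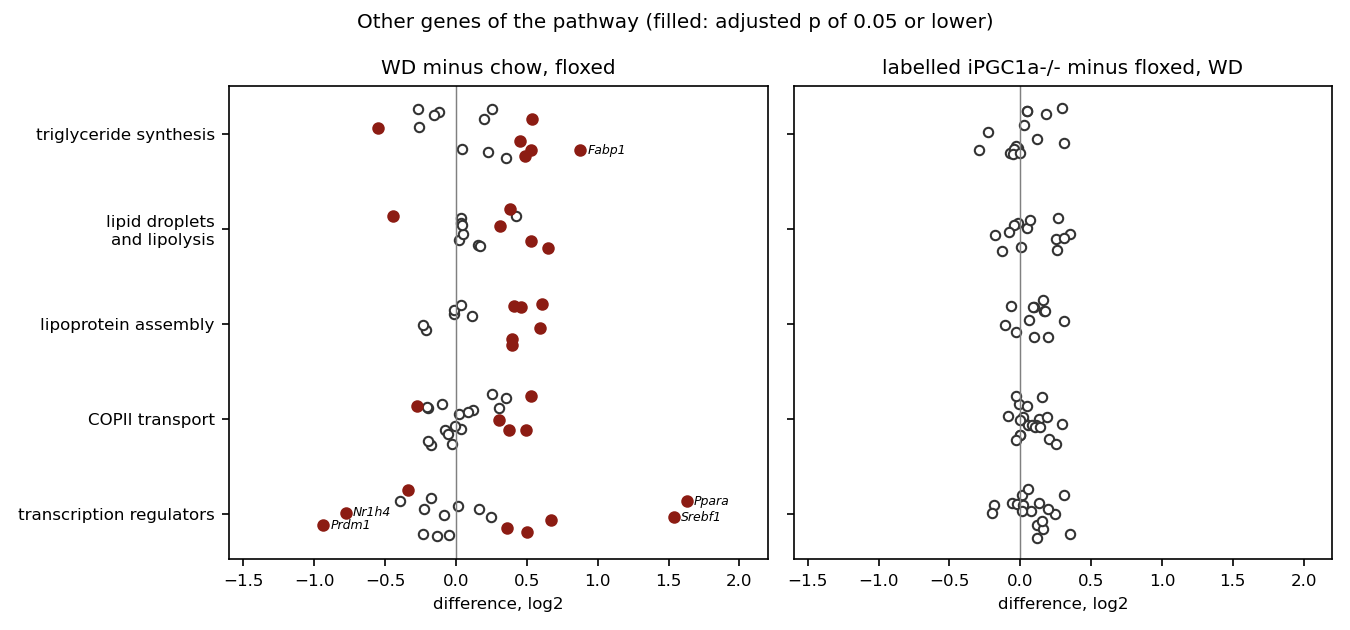
Log2 difference (horizontal axes) for the 79 other pathway genes, 1 point a gene, in 5 lists, for WD against chow in iPGC1afl/fl mice (left) and labelled iPGC1a-/- against iPGC1afl/fl on WD (right); filled points had an adjusted p of 0.05 or lower. On the left, 30 points are filled, with Ppara at 1.63 and Srebf1 at 1.54 far to the right, and on the right 0 are.

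Markers of other cells moved with the diet comparison. The mean level of the 10 genes was 14.78 ± 0.32 (SD, n = 6) on chow, 15.21 ± 0.09 on WD and 15.38 ± 0.07 in the arrays labelled iPGC1a-/-, and chow and WD did not overlap. The 6 enterocyte markers averaged 15.29 ± 0.23, 15.49 ± 0.19 and 15.64 ± 0.17 in the same order and overlapped, and 1 of 6, Alpi, rose on WD (by 0.90, adjusted p = 0.000191). Vil1 gave 0.20, Sis 0.17 and Anpep 0.16, while Slc5a1 gave -0.14 and Krt20 -0.06, and none of these passed. Of 5 proximal intestine markers Lct rose by 1.05 and Onecut2 fell by 1.78, and Pdx1 did not pass the filter. Of 6 ileum markers Fgf15 rose by 2.47, while Slc10a2 fell by 1.07, Slc51b by 0.94 and Nr1h4 by 0.78. The ileum list ranged from 12.83 to 13.50 on chow and from 12.96 to 13.37 on WD. Of 6 villus tip markers Creb3l3 and Neat1 rose by 0.50 and 0.41, and Nt5e and Slc28a2 fell by 0.85 and 0.68, with list ranges of 12.35 to 13.23 on chow and 12.33 to 13.19 on WD. Genes of T cells (4 of 5 measured), B cells (5 of 6), plasma cells (5 of 5), goblet cells (6 of 6) and cycling cells (5 of 6) fell on WD, beside 14.2% of all genes. Those whose arrays did not overlap were Cd3g, Cd3d and Cd8a of T cells (-1.59, -1.54 and -1.76), Jchain, Mzb1 and Sdc1 of plasma cells (-3.23, -1.68 and -0.26), Spink4 of goblet cells (-0.84) and Ccnb1 of cycling cells (-0.74). Mzb1 was well above background on 2 of 6 WD arrays. Chga fell by 0.80 and was also apart, but it was the only 1 of 6 enteroendocrine markers that passed. Chgb, Cck and Gcg gave -0.07, -0.09 and -0.17, while Neurod1 and Sct gave 0.09 and 0.25. The plasma cell list ranged from 8.99 to 9.74 on chow and from 7.85 to 8.75 on WD, the T cell list from 9.25 to 10.4 and from 8.501 to 9.06, and the goblet list from 15.4 to 15.9 and from 14.4 to 15.5. The cycling list ranged from 9.50 to 10.2 on chow and from 8.78 to 9.58 on WD, and the B cell list from 6.63 to 8.37 and from 5.53 to 7.28. The part of these cells in the differences of the 10 genes was not tested. Of the liver markers, Alb, Cyp7a1, F2 and Ahsg did not pass the filter. By genotype, 0 of 91 marker genes passed in limma, with 9 at an unadjusted p under 0.05, beside 9.3% of all genes. Cd68, a macrophage marker, was the one whose groups were apart (0.34, adjusted p = 0.255), beside 0.966% of all genes. The other macrophage markers measured did not follow it: Csf1r gave -0.04, Lyz2 -0.16 and C1qb 0.04.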

How the data were processed

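Ileum cells of 18 mice, 6 in each of 3 groups taken from the sample labels, were analysed, 1 array per sample. Per the labels, 200 ng of RNA was labelled for each array. The authors deposited spot intensity values from Agilent Feature Extraction 10.10.1.1 (raw median signal, background-subtracted signal and flags), not normalised between arrays, and a table of log2 values for 33095 probes. Their methods name a correction for washing bath and labelling serial. The labels used here name neither, so it was not repeated. Columns without a sample numbered 0.

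Control and outlier spots were left out and spots of a probe averaged (56605 probes). In the RefSeq annotation, 23666 of the 37074 gene names were current symbols and 1121 were synonyms. The filter kept the 32726 probes that exceeded background clearly (by the scanner's flag) on 5 or more of the 6 arrays in some group. Log2 median signals were normalised with an own version of qsmooth (window 0.05) and tested in limma 3.58.1 (R 4.3.3) with all 3 groups in a single model, and p-values were adjusted over all probes after Benjamini and Hochberg. A gene, represented by its brightest probe, passed at an adjusted p of 0.05 or lower. The test was checked on simulated arrays. Files were read with data.table (version 1.17.8) and plots drawn with matplotlib 3.10.9 under Python 3.11.15. The number of arrays sets the precision: the median standard error of a log2 difference was 0.104. Nothing in the labels says more of how the samples of a group were kept apart than their numbers, and p-values measure the spread between them. The 10 genes, the pathway lists and the marker lists were chosen with earlier results of these data known. Named are the 10 genes with all their probes, Ppargc1a, and markers whose groups did not overlap. Up to 4 passing genes with the largest change per pathway list are named as well. So is, among current RefSeq symbols, the gene with the highest Pearson r to each of the 10. Other markers were named after their values were seen.

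Alternatives were quantile normalisation, normexp (offset 50), scaling of background-subtracted or median signals to the 75th percentile, the log2 table deposited by the authors, a strict filter (28326 probes) or none, blocks for slide or replicate number, fits of 2 groups alone, robust variances with a trend, weights for arrays, probe averages, stricter thresholds and the omission of each array.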

Additional observations from a re-analysis of the deposited data

Results flagged for a closer look

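In each of the 3 groups of 6 arrays, the highest and lowest array of every gene was compared with its nearest neighbour by Dixon's ratio. Of 30 groups tested, 4 exceeded its critical value at the 95% level, and chance alone gives about 1 in 20. The array numbered 4 of iPGC1afl/fl mice on chow was far below the others for Apob (14.75), Apoa4 (15.13) and Apoc3 (14.45), which are 3 readings of 1 sample. The array numbered 4 of iPGC1afl/fl mice on WD, a different animal, was low for Apoc2 (16.35), although it was still above every chow array.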

How the results depend on the processing

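By diet, Apoa4, Apoc2, Dgat1, Mogat2 and Apob kept their direction under all 15 other settings and whichever of the 18 arrays was left out, and the last 3 left the call only where a threshold was raised. A fold change above 1.5 left 2 of the 10 genes, 9 of the 79 other pathway genes and 1815 genes in all by diet, and 29 in all by genotype (main counts 5, 30, 5294 and 49). An adjusted p of 0.01 or lower left 3019 genes by diet and 18 by genotype, and ended the call of Apob. Apoa1 passed under 9 settings, with adjusted p from 0.0173 to 0.0489, and over all 15 it ran to 0.0693. With single arrays left out, genes passing by genotype numbered 26 to 60, and the count for the 10 genes by diet stayed between 5 and 6. In the same refits the sign turned by diet for Apoc3 (-0.0079 to 0.31), Dgat2 (-0.077 to 0.16) and Sar1b (-0.10 to 0.11), the first 2 without chow array 4 only, and by genotype for Mogat2 (-0.0100 to 0.052). Scaling to the 75th percentile gave Mogat2 by genotype -0.078 from background-subtracted and -0.069 from median signals, and averaging its probes gave 0.23. Other genotype differences also shrank when background-subtracted signals were scaled this way. They were 0.27 for Apoc2 (main 0.41), 0.22 for Apoa4 (main 0.35), 0.24 for Apoc3 (main 0.35) and 0.03 for Apoa1 (main 0.14). The cause of these shifts was not tested. Without chow array 4, a setting added after the data were seen, the ratio of Mogat2 to Dgat2 passed (0.40), and the other 3 ratios stayed on their side of the threshold (0.28 for Apoa1 to Apoc3).

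Whether equal replicate numbers pair the samples was not settled. Correlations of same-numbered arrays ran from -0.23 to 0.35, and some arrays correlated best with their own number while others did not. With the replicate number as a replicate block, 6 of the 10 genes passed by diet (Apoa1 joining at adjusted p = 0.0340) and 0 by genotype, with 5910 and 36 genes in all. Signal over background limits Apoa5, G0s2 and the dim probes of Mttp, Mogat2 and Apoc3. The median of all genes moved by less than 0.1 on the log2 scale under every scaling.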
